A study of Mus musculus with 4 samples.

Results

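The respiratory chain genes were followed in cells of the mouse macrophage line Raw264.7 that were given 0.5 mM 1,5-anhydroglucitol (1,5-AG, a polyol close to glucose in structure) for 24 h, and in untreated control cells. Each group had 2 stranded mRNA libraries, and no other treatment or genotype is given for either group. The members were chosen by name: 53 subunit genes out of 21523 rows of the deposited table, 13 with the mt- prefix of genes carried on mitochondrial DNA and 40 carried on nuclear chromosomes. Of these, 52 had a mean of at least 1 FPKM (fragment counts divided by exon length and library depth) and entered the test. The exception was mt-Atp8. Separate cultures are not stated for the libraries of a group, so the p-values reflect the spread between libraries alone, and that spread may be technical. No culture time is given for the controls.

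The respiratory chain sits in the inner mitochondrial membrane. Complex I and complex II pass electrons from NADH and succinate to ubiquinone, complex III passes them on to cytochrome c, and complex IV hands them to oxygen. Complexes I, III and IV pump protons, and complex V, the ATP synthase, uses the resulting gradient. Mitochondrial DNA is copied into long RNAs that are cut into single messages, and most of the subunits are made from nuclear genes and imported. Macrophages are known to alter the use of this chain when they are activated. Nuclear chromosomes also carry old insertions of mitochondrial DNA, and a sequencing fragment from such a copy can be identical to one from the organelle.

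The 4 libraries held 14605854 to 16216566 gene-assigned fragments. All 8 macrophage markers examined exceeded 1 FPKM, from 7.39 to 3768 FPKM, and their summed level was 5497 and 5352 FPKM in control and 3972 and 3878 FPKM with 1,5-AG. Most of that sum was Lyz2, the lysozyme gene. Among markers of fibroblasts, T cells, B cells, neutrophils, epithelium, erythroid cells and striated muscle, the highest in the table was Lck at 1.26 FPKM. Many of these markers had no row. Rows existed for 2 of 4 markers each of fibroblasts, T cells and B cells, and for 1 of 4 of neutrophils. They existed for 1 of 3 of epithelium, 0 of 3 of erythroid cells and 2 of 3 of striated muscle. In bulk RNA, fewer cells of a type and less RNA per cell cannot be told apart.

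The matching of the members against the rows of the table shows where the values of the mitochondrial genes need care. A stretch of mitochondrial DNA from base 6390 to base 11042 had 7 matching rows on chromosome 1, between 24611535 and 24616197 on the minus strand (mm10), in the same gene order. These rows are Gm29216 (the last part of mt-Co1), Gm28661 (mt-Co2), Gm10925 (mt-Atp6), Gm28437 (mt-Co3), Gm28438 (mt-Nd3), Gm10222 (mt-Nd4l) and Gm28439 (the first part of mt-Nd4). Over the aligned bases Gm28661, Gm10925, Gm28437, Gm10222 and Gm28439 were 100% identical to the mitochondrial gene, and Gm29216 and Gm28438 had 1 mismatch each. The gene mt-Atp8 lies inside the same stretch, and no row of the table matched it. Only annotated rows were searched, so chromosome 1 sequence between these rows was not examined.

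The sequence of mt-Nd4l, the member that passed the test, is shown because its first 294 of 297 bases are also those of Gm10222, so that no fragment inside them can be assigned by sequence. It lies on the plus strand of the mitochondrial genome at chrM:9877-10173 (mm10), and the capitals mark the 7 bases it shares with the start of mt-Nd4.
mt-Nd4l: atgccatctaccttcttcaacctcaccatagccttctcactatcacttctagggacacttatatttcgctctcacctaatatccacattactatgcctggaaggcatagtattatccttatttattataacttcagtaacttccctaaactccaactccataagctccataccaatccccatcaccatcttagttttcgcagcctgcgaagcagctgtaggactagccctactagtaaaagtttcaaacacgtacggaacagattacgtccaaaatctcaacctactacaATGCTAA

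The starts of mt-Nd3 (chrM:9459-9501, plus strand) and of its copy Gm28438 (chr1:24613077-24613119, minus strand) are shown because they hold the only mismatch of that pair. The capitals mark it: T3C, with the mitochondrial base first and positions counted from the first base of the gene. The pair of mt-Co1 (chrM:6390-6433) and Gm29216 (chr1:24616145-24616188) differs at A1066T, also in capitals. All these bases are those of the reference build mm10, and the sequence carried by these cells was not examined. In that build, fragments that lie within the aligned bases of a pair and cover neither mismatch match both places equally well. The sources used here do not give how such fragments were counted.
mt-Nd3: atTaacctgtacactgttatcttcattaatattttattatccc
Gm28438: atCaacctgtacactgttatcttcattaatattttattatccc
mt-Co1: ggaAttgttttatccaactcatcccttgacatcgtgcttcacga
Gm29216: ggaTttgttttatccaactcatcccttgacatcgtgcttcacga

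The comparison of 1,5-AG with control cells asks how the compound changes expression of the chain. Of the 52 members tested, 1 rose and 0 fell, where 1.46% of all 11120 genes passed the same limma test at a Benjamini-Hochberg adjusted p of 0.05 and 0.809% were called higher. The member that rose was mt-Nd4l, a core membrane subunit of complex I. At unadjusted p under 0.05 there were 15 members (18.2% of all genes). Voom on fragments recovered from the FPKM called 7 members and 8.31% of genes. The median difference was 0.05 on the log2(FPKM + 1) scale over the 12 mitochondrially encoded members tested and 0.04 over the 40 nuclear ones, beside -0.0025 over all genes tested. Without control replicate 1 the mitochondrial median was -0.01, and without 1,5-AG replicate 2 it was -0.0034. The medians of the gene sets thus lay close together, while the mitochondrial members spread from -0.22 to 1.03 and the nuclear ones from -0.19 to 0.35.

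**Figure D1:**
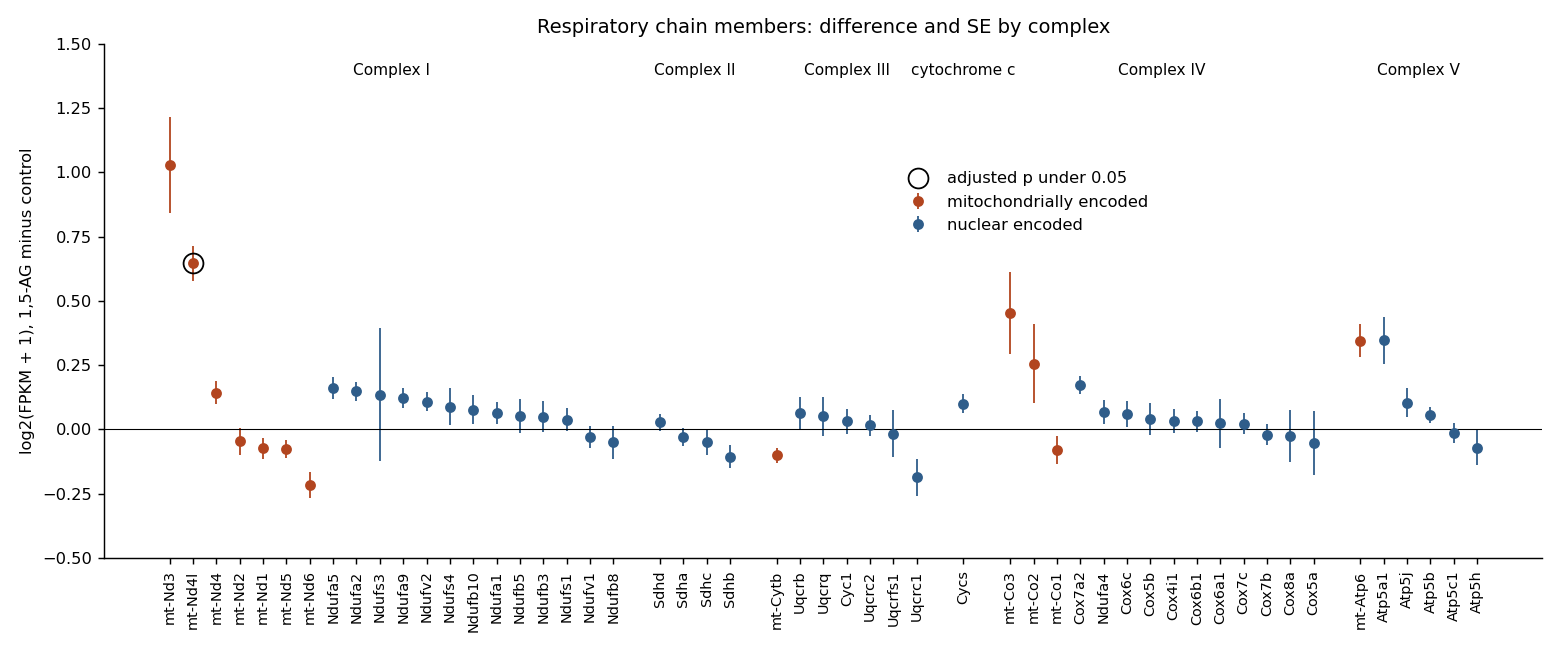
Difference between 1,5-AG and control cells on the log2(FPKM + 1) scale for the 52 members tested, ordered by complex, with bars for the SE of the limma fit (2 libraries per group). The single ringed point is mt-Nd4l, and the mitochondrially encoded points spread from -0.22 to 1.03 while 39 of 40 nuclear ones lie within 0.2 of 0.

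The FPKM assigned to the mitochondrially encoded members differed widely with their place in the genome. Outside the stretch copied to chromosome 1, the lowest library value was 611 FPKM, for mt-Nd6 with 1,5-AG. Within it, mt-Co1 had the highest values of all members, 9105 and 9528 FPKM in control and 8431 and 9225 FPKM with 1,5-AG. The copy of mt-Co1 covers only its last part, and mt-Nd4, copied in its first part, had 734 and 739 FPKM in control and 784 and 844 FPKM with 1,5-AG. The 5 genes copied almost whole, mt-Co2, mt-Atp6, mt-Co3, mt-Nd3 and mt-Nd4l, lay between 4.17 and 178 FPKM. Most of their sequence cannot be told from that of the copies, so these values need not be the levels of their RNA. The gene mt-Atp8 had 0 fragments in 3 libraries and 1 fragment in 1,5-AG replicate 2. A count of 0 allows up to 3 assigned fragments, or 0.906 to 1.01 FPKM in these libraries, for counting error only. Of its 204 bases, mt-Atp8 shares 43 with mt-Atp6 on the same strand. How fragments that touch both genes were counted is not given, so this range is no bound on the RNA of mt-Atp8.

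**Figure D2:**
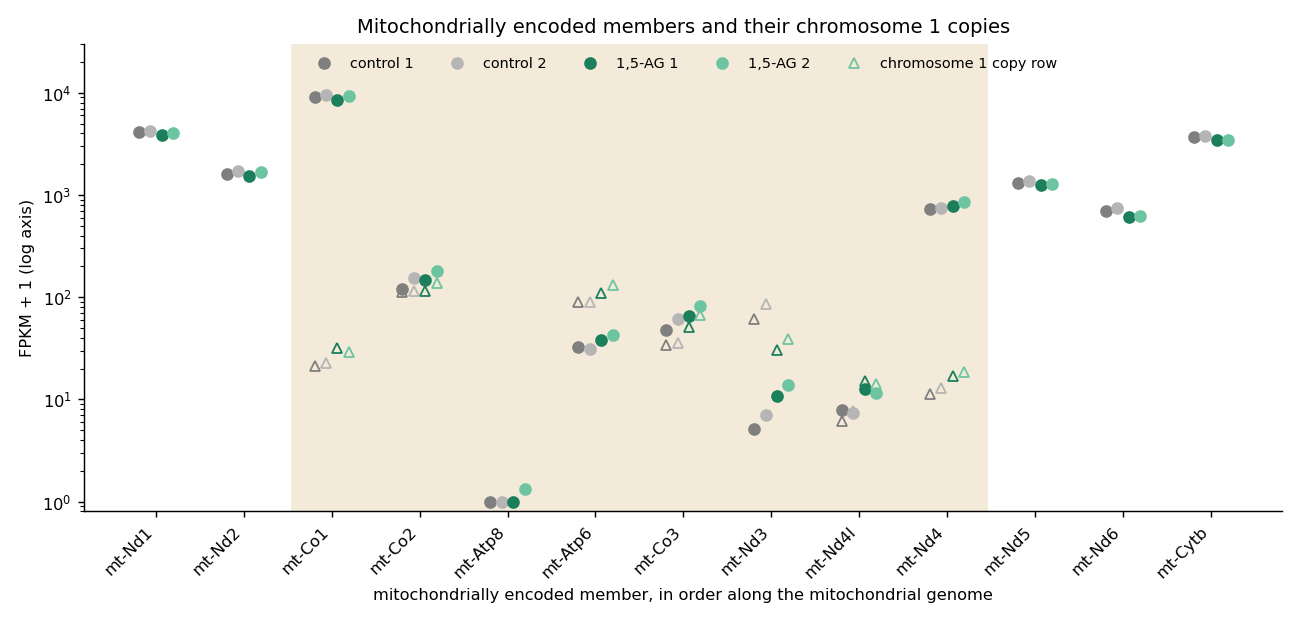
FPKM + 1 (log axis) of the 13 mitochondrially encoded members in their order along the mitochondrial genome. Filled circles are single libraries, open triangles are the matching chromosome 1 rows, and the shaded band marks the copied stretch from mt-Co1 to mt-Nd4, where mt-Co2 to mt-Nd4l lie at 178 FPKM or less.

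The 5 members tested that have no chromosome 1 row encode core subunits of complex I and the cytochrome b of complex III. All 5 had lower means with 1,5-AG, beside 49.1% of all genes tested with differences above 0. None of the 5 passed the limma test, where 1.46% of all genes did. Their differences ran from -0.22 to -0.05, with a median of -0.08. At unadjusted p under 0.05 there were 2 (18.2% of all genes), and voom called the same 2, mt-Nd6 and mt-Cytb (8.31% of all genes). Under quantile normalization mt-Nd1 and mt-Cytb changed sign and passed as higher, at 0.12 (limma adjusted p = 0.0296) and 0.17 (limma adjusted p = 0.0193). That method sets values by rank, and it gave mt-Co1, the highest member, a difference of 0. Without 1,5-AG replicate 1 mt-Nd2 changed sign, to 0.01.

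The gene mt-Nd6, a complex I subunit, is the only member on the minus strand of mitochondrial DNA. It had 690 and 750 FPKM in control and 611 and 627 FPKM with 1,5-AG. Both treated libraries lay below both controls (log2 difference -0.22, SE 0.05, limma adjusted p = 0.120). Its last 14 bases overlap mt-Nd5 on the other strand, and the sources used here do not give whether the authors counted by strand. Its difference passed with voom (-0.22, adjusted p = 0.00307).

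Cytochrome b, the product of mt-Cytb, carries the ubiquinone sites of complex III. Its gene had 3697 and 3739 FPKM in control and 3446 and 3484 FPKM with 1,5-AG. The groups did not overlap, and the difference was small (-0.10, SE 0.03, limma adjusted p = 0.181). Voom called it lower (adjusted p = 0.0131). The sign was kept under median-ratio scaling (-0.10) and under scaling without mitochondrial rows (-0.10). Quantile normalization alone called it higher, with an SE of 0.01, so the direction for mt-Cytb was reversed only where values are set by rank. For mt-Nd1, which helps to form the ubiquinone site of complex I, the values were 4108 and 4197 FPKM against 3822 and 4070 FPKM (-0.07). For mt-Nd5, a proton-pumping subunit of complex I, they were 1320 and 1358 FPKM against 1252 and 1288 FPKM (-0.08). In both genes the groups were separate and the limma adjusted p was 0.334 or more. The gene mt-Nd2, another proton-pumping subunit, had 1607 and 1702 FPKM in control and 1542 and 1664 FPKM with 1,5-AG, and its groups overlapped (-0.05).

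Among the 7 members with a chromosome 1 row, 6 had higher means with 1,5-AG and 1 a lower mean, with a median of 0.35. The member that passed, mt-Nd4l, had 31 fragments in each control library, and 50 and 47 in the treated ones. In FPKM these were 6.88 and 6.43 against 11.5 and 10.5, so both treated libraries stood above both controls (log2 difference 0.65, SE 0.07, limma adjusted p = 0.0314). The difference stayed above 0 with 1 library left out, while its call was lost. Without control replicate 1 it was 0.69 (limma adjusted p = 0.105), and without control replicate 2 it was 0.60 (limma adjusted p = 0.130). Without 1,5-AG replicate 1 it was 0.58 (limma adjusted p = 0.136), and without 1,5-AG replicate 2 it was 0.71 (limma adjusted p = 0.103). Such fits called only 2 to 10 of all genes. The call was also lost without the variance trend (limma adjusted p = 0.0950) and with voom (0.72, adjusted p = 0.128). The copy Gm10222, identical to it over 294 bases, had 23 and 32 fragments in the control libraries against 61 and 59 in the treated ones, and it rose too (1.10, SE 0.12, limma adjusted p = 0.0313; voom adjusted p = 0.00913). Without control replicates 1 and 2 in turn its difference was 0.93 (limma adjusted p = 0.0909) and 1.26 (limma adjusted p = 0.0678). Without treated replicates 1 and 2 in turn it was 1.05 (limma adjusted p = 0.136) and 1.14 (limma adjusted p = 0.120), and without the variance trend the adjusted p was 0.0952. With the fragments of both rows summed, 54 and 63 stood against 111 and 106 (0.92, SE 0.07, limma adjusted p = 0.020), in a fit that called 1.42% of genes. These few fragments are the whole of the evidence for the change in mt-Nd4l, and they do not say from which locus the RNA came.

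The row of mt-Nd3, a small complex I subunit, differed in direction from the row of its copy. It had 22 and 34 fragments in the control libraries against 50 and 68 in the treated ones (4.17 and 6.02 against 9.83 and 12.9 FPKM; log2 difference 1.03, SE 0.19, limma adjusted p = 0.0838). It passed with voom (1.15, adjusted p = 0.0169) and, in limma, among genes with a mean of at least 5 FPKM (adjusted p = 0.0328). Its copy Gm28438 had 313 and 471 fragments in the control libraries against 148 and 196 in the treated ones (-1.07, SE 0.19, limma adjusted p = 0.0807; voom adjusted p = 0.00012). Both rows had separate groups, in opposite directions. Of the fragments assigned to the pair, the mitochondrial row held 6.57% (95% Wilson interval 4.38 to 9.74%) and 6.73% (4.86 to 9.26%) in the controls. With 1,5-AG it held 25.3% (19.7 to 31.7%) and 25.8% (20.9 to 31.4%). These intervals cover counting error only. The share need not mark the locus from which the RNA came, and the base these cells carry at the mismatch T3C was not examined. Libraries of a group agreed within these intervals, while control and 1,5-AG libraries did not overlap, and this share was not tested. The sum of the pair was lower with 1,5-AG, at 335 and 505 against 198 and 264 fragments (-0.76, limma adjusted p = 0.143), so the sign for mt-Nd3 depends on how the copy is treated.

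The ATP synthase gene mt-Atp6, which encodes the subunit that forms the proton path of complex V, had 31.6 and 30.0 FPKM in control and 37.4 and 41.4 FPKM with 1,5-AG. Its groups were separate (log2 difference 0.35, SE 0.06, limma adjusted p = 0.0841; voom adjusted p = 0.0284). The row of its copy Gm10925 was higher than mt-Atp6 itself, with 88.1 and 87.8 FPKM against 110 and 131 FPKM (0.44, limma adjusted p = 0.0904). The mitochondrial row held 24.2% to 26.5% of the pair's fragments in the 4 libraries.

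For complex IV, mt-Co3, a core subunit, had 46.3 and 60.4 FPKM in control and 64.9 and 81.7 FPKM with 1,5-AG (0.45, SE 0.16, limma adjusted p = 0.236; voom adjusted p = 0.00921). Its copy Gm28437 had 32.9 and 34.9 FPKM against 49.6 and 65.2 FPKM (0.73, limma adjusted p = 0.0803). The gene mt-Co2, whose product takes electrons from cytochrome c, had 118 and 154 FPKM against 146 and 178 FPKM, and its groups overlapped (0.26, limma adjusted p = 0.458). The groups also overlapped for its copy Gm28661 (0.15) and for the sum of both rows. The gene mt-Co1, which carries the oxygen-reducing site, had the values given above and overlapping groups (-0.08, limma adjusted p = 0.515). Its copy Gm29216 took 151 and 174 fragments in the control libraries against 220 and 211 in the treated ones, and this row rose (0.47, SE 0.06, limma adjusted p = 0.0453). With voom its adjusted p was 0.0263. With control replicates 1 and 2 left out in turn, its difference was 0.42 (limma adjusted p = 0.141) and 0.52 (limma adjusted p = 0.128). With treated replicates 1 and 2 left out in turn, it was 0.42 (limma adjusted p = 0.167) and 0.52 (limma adjusted p = 0.128). Quantile normalization (limma adjusted p = 0.0524) and a fit without the variance trend (limma adjusted p = 0.111) also ended the call. The mt-Co1 row held 99.9% of the fragments of the pair in every library.

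The gene mt-Nd4, a proton-pumping subunit of complex I, had a higher mean with 1,5-AG and separate groups (0.14, SE 0.04, limma adjusted p = 0.198; voom adjusted p = 0.0144). Its copy Gm28439 had 10.3 and 11.9 FPKM against 16.1 and 17.4 FPKM (0.56, limma adjusted p = 0.0563). Of the 7 chromosome 1 rows, 6 had differences above 0, and 2 passed the limma test, Gm10222 and Gm29216, where 1.46% of all genes did. Voom called 6 of the 7, all but Gm28661, where it called 8.31% of all genes. A second copy of mt-Co1 on chromosome 2, Gm13340, is 97.6% identical and had 64 and 79 fragments in the control libraries against 139 and 118 in the treated ones (0.74, limma adjusted p = 0.0581; voom adjusted p = 0.00397). Copies of mt-Co2 and mt-Nd2 on chromosome 2 and of mt-Nd5 on chromosome 13 had 11 fragments or fewer in every library.

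**Figure D3:**
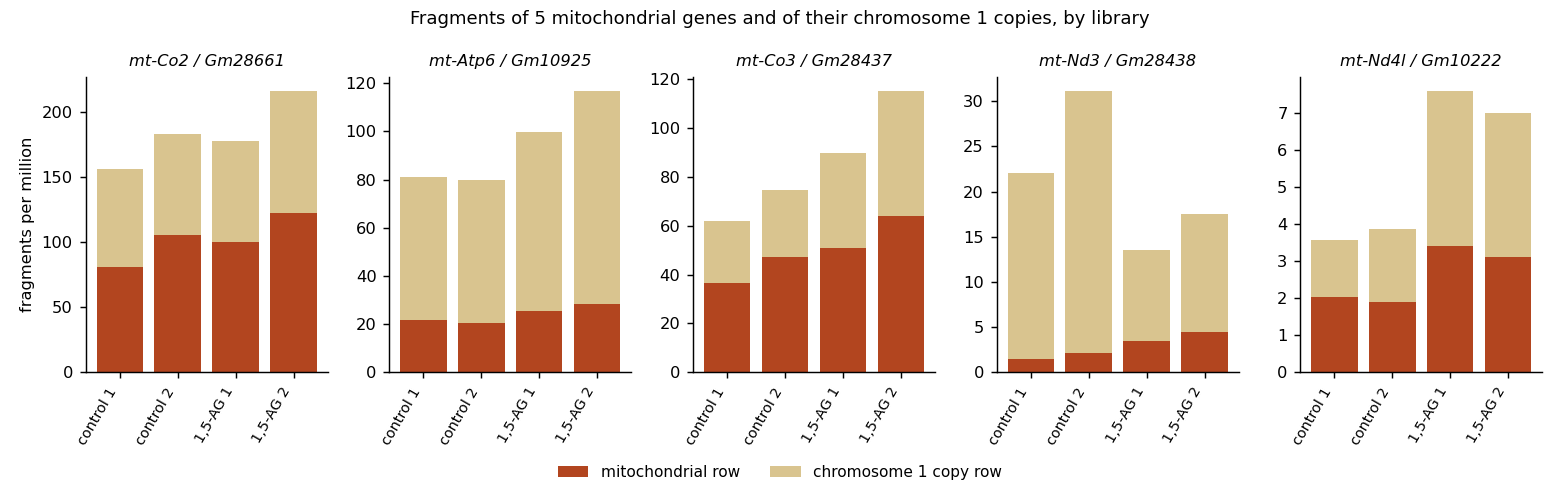
Fragments scaled to the depth of each library for 5 mitochondrial genes (dark) and, stacked on them, their chromosome 1 copies (light); each panel has its own axis from 0. The sums of mt-Atp6, mt-Co3 and mt-Nd4l with their copies are higher in both 1,5-AG libraries, the sum of mt-Nd3 is lower, and that of mt-Co2 overlaps between the groups.

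The direction of the mitochondrial set thus changed with the members kept. With the 7 members that have a chromosome 1 row left out, the median went from 0.05 to -0.08. The 3 members left after removing every gene with any matching row or a same-strand overlap were mt-Nd1, mt-Nd6 and mt-Cytb, with a median of -0.10. With each pair summed, the median of the set was -0.06. The median log2(FPKM + 1) of the mitochondrial members exceeded that of the nuclear ones by 3.35 and 3.42 in control and by 3.24 and 3.38 with 1,5-AG, and the groups overlapped. Both treated libraries lay above both controls for 5 of 12 mitochondrial members (41.7%) and below them for 4 (33.3%), where 24.2% and 25.4% of all genes tested did so.

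The 40 nuclear members showed small differences. None passed the limma test (1.46% of all genes), 8 had an unadjusted p under 0.05 (18.2% of all genes), and voom called 1, Atp5a1 (8.31% of all genes). The differences of 39 were under 0.2 in size. Means over all libraries ran from 2.53 FPKM for Ndufs3 to 411 FPKM for Atp5b. Differences were above 0 for 28 and below 0 for 12, beside 49.1% above 0 over all genes tested. Both treated libraries lay above both controls in 12 (30.0%) and below them in 3 (7.5%), beside 24.2% and 25.4% of all genes.

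In complex I, 11 of 13 nuclear members had a higher mean with 1,5-AG, with a median of 0.08. Ndufa5, an accessory subunit, had 41.5 and 43.3 FPKM in control and 48.4 and 46.7 FPKM with 1,5-AG (0.16, SE 0.04, limma adjusted p = 0.160). Ndufa2, another accessory subunit and the most abundant of the 13, had 111 and 106 FPKM against 120 and 121 FPKM (0.15, limma adjusted p = 0.142). In both the treated libraries stood above the controls, by a margin too small to pass. Ndufb8 had the lowest difference (-0.05), with overlapping groups, and it changed sign without control replicate 1 or without 1,5-AG replicate 2, to 0.01 in each. Ndufs3, a core subunit of the arm that reaches into the matrix, was low, with 102, 59, 66 and 108 fragments in the 2 controls and the 2 treated libraries. A processed pseudogene, Gm12251, is 98.6% identical to it over 792 bases and had 46 to 66 fragments per library, so the level of Ndufs3 is uncertain.

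Complex II, succinate dehydrogenase, is made wholly from nuclear genes and also serves the citric acid cycle. Of its 4 genes 3 had lower means. Sdhb, the iron-sulfur subunit, had 64.5 and 63.6 FPKM in control and 61.2 and 57.7 FPKM with 1,5-AG (-0.11, SE 0.04, limma adjusted p = 0.300). Sdhd, a membrane anchor and the most abundant, had 202 and 198 FPKM against 205 and 204 FPKM (0.03), and under quantile normalization it changed sign, to -0.03. The catalytic subunit Sdha (-0.03) and the other anchor Sdhc (-0.05) had differences no larger than 0.05.

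In complex III, Uqcrc1, a core subunit, had 17.2 and 18.6 FPKM in control and 14.7 and 16.5 FPKM with 1,5-AG. Its groups were separate, and it had the lowest difference of the nuclear members (-0.19, SE 0.07, limma adjusted p = 0.274). Uqcrb had the highest of this complex (0.06), which changed sign without 1,5-AG replicate 2, to -0.02. Uqcrfs1, the Rieske iron-sulfur protein and the most abundant, had 111 and 95.5 FPKM against 108 and 96.1 FPKM, so the libraries of a group differed by more than the groups. Its difference of -0.02 changed sign without control replicate 1, to 0.09, and without 1,5-AG replicate 2, to 0.07.

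Cycs encodes cytochrome c, which carries electrons between complexes III and IV and also takes part in apoptosis when released. It had 57.2 and 57.4 FPKM in control and 62.0 and 61.1 FPKM with 1,5-AG, with separate groups (0.10, SE 0.04, limma adjusted p = 0.241). Cycs had 12 matching rows in the table, more than any other member. Many of these are microRNA rows of 125 or 126 bases. They match in the opposite direction, within bases 2021 to 2146 of the Cycs transcript. The most abundant of the 12 rows, Gm10053 on chromosome 19, is 99.9% identical over 946 bases. It had 339 and 400 fragments in the control libraries against 474 in each treated one (0.43, SE 0.06, limma adjusted p = 0.0504). It was named after its values were seen.

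In complex IV, cytochrome c oxidase, 8 of 11 nuclear members had higher means, with a median of 0.03. Here Ndufa4 is counted, a protein first assigned to complex I and later to complex IV. Cox7a2, an accessory subunit, had 90.05 and 87.8 FPKM in control and 99.5 and 101 FPKM with 1,5-AG. Its groups were separate, and it had the smallest limma adjusted p of the nuclear members (0.17, SE 0.04, adjusted p = 0.103). Cox6a1, the most abundant, had 301 and 255 FPKM against 297 and 267 FPKM (0.02). This small difference changed sign under quantile normalization, to -0.05, without control replicate 2, to -0.10, and without 1,5-AG replicate 1, to -0.05. Cox5a, a matrix-side subunit, had the lowest difference of the complex (-0.05), which changed sign without control replicate 1, to 0.09, and without 1,5-AG replicate 2, to 0.07.

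In complex V, Atp5a1, the alpha subunit of the catalytic head, had the highest difference of all nuclear members. It had 34.1 and 32.4 FPKM in control and 46.6 and 38.8 FPKM with 1,5-AG, so the treated libraries were apart from each other and both above the controls (0.35, SE 0.09, limma adjusted p = 0.154). With voom on the recovered fragments, which numbered 1620 and 1649 against 2135 and 1837, the adjusted p was 0.00199. Its partner in the head, the beta subunit gene Atp5b, was the most abundant nuclear member, with 404 and 402 FPKM against 421 and 417 FPKM (0.06, SE 0.03, limma adjusted p = 0.413). Atp5h, a subunit of the stalk that holds the head, had the lowest difference (-0.07), and it changed sign without control replicate 2, to 0.02. Subunits of the same head thus differed in size of change, and this was not tested.

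Libraries of a group differed in the same direction in most mitochondrial members. In 10 of the 12 mitochondrial members tested (83.3%), library 2 was above library 1 in the control group and also in the 1,5-AG group, as in 29.0% of all genes tested. This was most marked for mt-Co2, mt-Co3 and mt-Nd3. Among nuclear members, 16 of 40 had library 2 below library 1 in both groups, as in 26.1% of all genes, and 11 had it above in both. Cox8a, a small complex IV subunit, had 278 and 234 FPKM in control and 267 and 235 FPKM with 1,5-AG. For such genes the spread within a group exceeded the difference between groups. The labels do not state what, if anything, libraries with the same number shared.

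**Figure D4:**
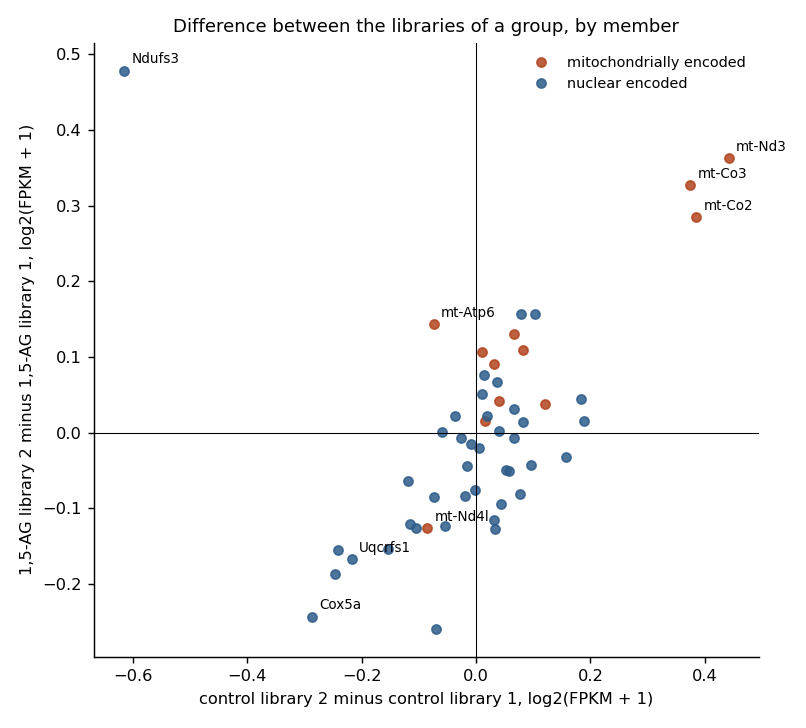
Library 2 minus library 1 on the log2(FPKM + 1) scale in the control group (horizontal) and in the 1,5-AG group (vertical), 1 point per member tested. Of 12 mitochondrially encoded members 10 lie in the upper right corner, with mt-Nd3, mt-Co3 and mt-Co2 farthest out, while Ndufs3 differs in opposite directions in the groups.

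Genes that serve the chain were also examined, as 10 lists outside the members. Of 199 genes tested, 0 passed the limma test (1.46% of all genes), 16 had an unadjusted p under 0.05 (18.2% of all genes) and voom called 1, Mrpl42 (8.31% of all genes). Differences were above 0 for 133 of them, with a median of 0.03, beside 49.1% of all genes above 0. Among 76 mitochondrial ribosomal protein genes tested, 52 were above 0, with a median of 0.04. Mrpl42, one of these, had 25.9 and 26.8 FPKM in control and 32.0 and 30.1 FPKM with 1,5-AG (0.23, SE 0.05, limma adjusted p = 0.110).

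The other nuclear subunits of complex I had 14 of 23 above 0 (median 0.01), with the smallest p for Ndufc1, at 20.6 and 19.5 FPKM against 23.5 and 23.5 FPKM (0.22, limma adjusted p = 0.109). The other subunits of complex V had 10 of 13 above 0 (median 0.05), with the smallest p for Atp5g1, a source of the c-ring (0.13). Those of complexes III and IV had 2 of 4 above 0 (median 0.00), with the smallest p for Cox7a2l, a factor of supercomplex assembly (-0.13). Of 8 isoform genes typical of muscle and other tissues 5 were in the table, and 1 of them exceeded 1 FPKM, Cox7a1 (-0.15), which changed sign without control replicate 2, to 0.02.

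Of the 40 assembly factors tested 25 were above 0 (median 0.03), with the smallest p for Pet100, a complex IV assembly factor (-0.20). Among 15 genes of mitochondrial DNA maintenance and transcription 12 were above 0 (median 0.03), with the smallest p for the elongation factor gene Tefm, at 6.76 and 7.93 FPKM against 8.45 and 8.89 FPKM (0.22, limma adjusted p = 0.272). Of 17 genes of mitochondrial RNA processing and stability 11 were above 0 (median 0.04), led by Trmt10c, a subunit of mitochondrial RNase P (0.18, limma adjusted p = 0.244). Of 7 regulators of respiratory genes 4 were above 0 (median 0.02), led by the nuclear receptor gene Esrra (0.17, limma adjusted p = 0.359). The ribosomal and transfer RNAs of mitochondrial DNA had 3 rows. The highest difference was for mt-Tp, a proline tRNA, at 373 and 439 FPKM in control and 468 and 546 FPKM with 1,5-AG (0.32, limma adjusted p = 0.216). The kit selects polyadenylated RNA, so levels of such RNAs are not those in the cell.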

How the data were processed

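RNA of 4 Raw264.7 libraries (2 control, 2 with 1,5-AG) was used. Reads were processed with HISAT2, HTSeq, Cufflinks and Trimmomatic on build mm10, per the submitters' processing notes; the sources used here give no versions, roles or strand setting. The authors deposited FPKM, 1 column per library. Of 21523 rows 21508 matched GENCODE release M21. FPKM multiplied by merged exon length gave whole fragments, within 0.02 fragments in all libraries, for 99.4% of matched rows; this gave the fragments and the depth used here.

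On the log2(FPKM + 1) scale the groups were compared by limma 3.58.1 (R 4.3.3), with a variance trend, two-sided, for 11120 genes with a mean of at least 1 FPKM, and adjusted by the Benjamini-Hochberg method over all of them (threshold 0.05). Differences are 1,5-AG minus control and understate changes of low genes. With 2 libraries per group the smallest exact permutation p is 0.333. Transcripts of the members were matched with BLAST 2.17.0 to those of all rows, at 90% identity or more over at least 80% of the shorter one.

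The members and lists were chosen with earlier results of these data known. Named were all mt- members, members past the threshold, per complex the nuclear member with the highest and the lowest difference and the most abundant one, per list up to 4 genes past the threshold or else the one with the smallest p, and copies of mt- members with a mean of at least 1 FPKM. Alternatives were the pseudocount, the filter, scaling, the variance model, each library left out, a replicate block, voom on recovered fragments and the treatment of copies.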

Additional observations from a re-analysis of the deposited data

How the results depend on the processing

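After seeing the data, 2 settings were added: summing copies, and leaving out only members with a chromosome 1 copy. Calls over all genes, 162, numbered 0 in limma with no filter (2628 at unadjusted p under 0.05), 360 at a mean of at least 5 FPKM, 5 without the variance trend, 924 with voom on recovered fragments and 2 to 10 with 1 library left out. The number of members past it, 1, was 0 without a filter (11 at unadjusted p under 0.05), 0 without the variance trend, 0 in every fit with 1 library left out, 3 at a mean of at least 5 FPKM (mt-Nd4l, mt-Nd3 and mt-Atp6, all higher), 3 under quantile normalization (mt-Nd4l, mt-Nd1 and mt-Cytb, all higher) and 7 with voom. In the fits with 1 library left out, the variance comes from the group that keeps 2.

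The mitochondrial median, 0.0486, was 0.143 without a filter (mt-Atp8 enters), 0.145 under quantile normalization, -0.0601 with copies summed, -0.102 without members that have any copy or a same-strand overlap, -0.0762 without those with a chromosome 1 copy, and -0.0117 to 0.102 with 1 library left out. The nuclear median, 0.0390, was -0.00697 under quantile normalization and 0.0190 to 0.0654 with 1 library left out. The mitochondrial minus the nuclear median, 0.00957, was 0.104 without a filter, 0.152 under quantile normalization, -0.0991 with copies summed, -0.141 without members that have any copy or overlap, -0.115 without those with a chromosome 1 copy, and -0.0689 to 0.0835 with 1 library left out.

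Under quantile normalization, which sets values by rank, mt-Nd1 (0.118, adjusted p = 0.0296) and mt-Cytb (0.172, adjusted p = 0.0193) passed with the other sign. Sdhd (-0.0335) and Cox6a1 (-0.0530) changed sign there without passing, as did mt-Nd3 with copies summed (-0.756). With 1 library left out, mt-Nd2 ranged over -0.101 to 0.00892, Ndufb8 over -0.111 to 0.00894, Uqcrb over -0.0163 to 0.140, Uqcrfs1 over -0.125 to 0.0922, Cox5a over -0.197 to 0.0889, Cox6a1 over -0.0968 to 0.144, Atp5h over -0.166 to 0.0232 and Cox7a1 over -0.316 to 0.0189. With the replicate block 310 genes and 6 members passed: mt-Nd4l, mt-Nd3, mt-Co3 and mt-Co2, higher, and mt-Nd6 and mt-Cytb, lower. Across genes the deviations of libraries with equal numbers had a correlation of 0.0124, and the labels do not pair them, so the fit without the block is the one reported. Over the named genes and all alternatives, 644 values stayed on their side of the threshold, 20 no longer passed, 30 newly passed and 17 had the other sign, 2 of them past the threshold. Beyond the genes and libraries that a setting removes, the cause was not tested. Few fragments limit mt-Nd4l and mt-Nd3, and mt-Atp8 had at most 1 fragment in a library.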
